A study of Mus musculus with 4 samples.

Results

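MHC class I presentation was examined through 10 genes of the 55450 in the count matrix, chosen by symbol: H2-K1, H2-D1, B2m, Tap1, Tap2, Tapbp, Psmb8, Psmb9, Erap1 and Nlrc5. They were read in immune, tumour and stromal cells of 4T1 tumours, profiled by droplet single-cell RNA sequencing (10x Genomics), in which each transcript molecule carries a unique molecular identifier (UMI). The 10 genes gave 2167721 of the 354742109 UMIs in the cells kept, which is 0.611%. Fibroblasts and pericytes held the least class I chain transcript outside 1 library, chain levels of tumour cells stood within the range of the leucocytes, and levels also differed between libraries inside the same cell class. In library 2 the values of tumour cells lay below those of every immune class in Tap1, Tap2 and Psmb9. Beyond counting error this held against every immune class for Psmb9 only. For Tap1 the counting interval of plasmacytoid dendritic cells (3 UMIs) overlapped that of tumour cells. For Tap2 those of macrophages and monocytes did, among others. The share of all genes lying below every immune class there is not given, so nothing is read from the choice of these genes. In library 1 the Tap1 value of tumour cells, 125 CPM (122 to 127), was likewise below those of every immune class. The nearest class, NK cells, had 134 CPM there, with an overlapping interval (97.3 to 180).

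MHC class I molecules show peptides made inside a cell to CD8+ T cells. A heavy chain, here H2-K1 or H2-D1, pairs with the invariant light chain beta-2 microglobulin (B2m). The proteasome cuts cytosolic proteins, and its inducible subunits Psmb8 and Psmb9 replace constitutive ones to form the immunoproteasome. The transporter Tap1 and Tap2 carries the peptides into the endoplasmic reticulum, tapasin (Tapbp) holds an empty heavy chain beside the transporter, and the aminopeptidase Erap1 trims peptides to fit. Nlrc5 is the transactivator of class I genes, and interferon-gamma, made by T and NK cells, is known to raise most of these genes. Dendritic cells use the same machinery to prime CD8+ T cells, the type 1 conventional subset (cDC1) above all.

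The 4T1 line is a mammary carcinoma of BALB/c mice. Female mice aged 6 to 8 weeks carried tumours grown from 1000000 implanted 4T1 cells. By the protocol recorded for every sample, they were injected intravenously on day 7. Near-infrared light followed on days 8 to 10 (980 nm, 1 W per square cm, 5 min), and tumours were taken on day 13. The records put 2 samples under PBS and 1 under TIOs+NIR, where TIOs are light-activated, T cell-inspired oncolytic particles of micrometre size. That protocol gives the light to both groups, but the name PBS does not include it. Whether the PBS mice were irradiated is therefore not settled here. The fourth sample was left without a group because its title and its protocol entry name different injections. The sources used here do not say whether a sample was 1 mouse or several pooled. The study sorted cells for CD45, the leucocyte protein encoded by Ptprc, so tumour and stromal cells are those found despite the sort, and they need not represent the tumour.

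The matrix holds 33064 barcodes with 355765099 UMIs and marks 4 libraries by a barcode suffix that no label ties to a sample. Libraries are therefore given as 1 to 4, each a sample of unknown treatment, and neither a comparison of treatments nor a test was made. Median UMIs per barcode were 11094, 2524.5, 2640 and 6985 in libraries 1 to 4. After removal of 931 barcodes with under 300 genes or over 15% mitochondrial UMIs, 24611 of 32133 cells (76.6%) were assigned to a class by holding at least 3 of 8 marker genes of that class and at least 2 more than of any other. A further 4470 cells mixed markers of several classes, as doublets do, and were set aside with 3052 unassigned cells. All 48 marker genes kept out of the assignment were at least 2-fold higher inside their class. Libraries shared 101 barcode sequences, and 10 of the 95 shared pairs among kept cells fell in the same class.

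Library 1 stood apart before any member was read. It held 3521 of the 3661 tumour cells, 139 came from library 2, 1 from library 4 and none from library 3, so every statement on tumour cells rests on libraries 1 and 2. Tumour keratin transcripts in other classes were also more abundant in library 1 than in library 2. The tumour keratins Krt8 and Krt18 in fibroblasts stood at 8.29% of their tumour cell level in library 1 and at 1.54% in library 2. Over the classes other than tumour cells these keratins ran from 5.76% in NK cells to 12.9% in neutrophils in library 1. In library 2 they ran from 0.467% in endothelial cells to 2.17% in neutrophils. Whether these came from free tumour RNA or from remaining doublets was not tested. In tumour cells Ptprc was at 8.63 and 8.95 CPM in libraries 1 and 2, against 121 to 1717 CPM in the immune classes, and the part of leucocyte RNA in their levels was not tested. Levels below are UMIs of a gene per 1000000 UMIs (CPM), summed over all cells of a class in a library that gave at least 20 cells and 100000 UMIs. This left 17 classes and 44 class-library values, with B cells and basophils unmeasured. Intervals in brackets are exact 95% Poisson intervals that cover counting error only, and levels are compared between classes for a single gene, never between genes.

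The heavy chains, transporter, tapasin and proteasome genes lie in the mouse MHC on chromosome 17 (GRCm38). H2-K1 is at chr17:33996017-34000347 on the minus strand, Tapbp at chr17:33915899-33929292, Psmb9 at chr17:34181987-34187764 on the minus strand, Tap1 at chr17:34187553-34197225, Psmb8 at chr17:34197721-34201454, Tap2 at chr17:34203527-34216321 and H2-D1 at chr17:35262730-35267499. B2m is at chr2:122147686-122153083, Nlrc5 at chr8:94434356-94527272 and Erap1 at chr13:74639568-74693201, each, like the other genes with no strand named, on the plus strand. Psmb9 and Tap1 overlap at their starts on opposite strands, and Erap1 overlaps the 3′ part of the calpastatin gene Cast, also on the opposite strand. BALB/c mice carry the H-2d class I alleles while the reference genome comes from an H-2b strain, and class I heavy chain genes are close copies of each other. Reads of H2-K1 and H2-D1 may therefore have been lost or assigned to relatives. Levels of relatives such as the H2-Q genes, H2-K2 and H2-T23 may hold such reads. All classes come from the same strain.

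The control regions are shown because class I and peptide supply genes are known to share promoter elements. RefSeq (GRCm38.p6) gave promoter windows for 8 of the 10 genes. The 250 bases before the RefSeq start (for H2-K1, the first of 2 windows) are printed 5′ to 3′ on the gene's own strand. Capitals mark matches, on either strand, to GGGATTCCC (a kappaB site of class I genes), to TTTCNNTTC and TTCNNTTTC (short forms of the interferon response element, which can overlap) and to TTCNNNGAA (a GAS site). The first pair are the heavy chains, at chr17:34000348-34000597 (minus strand) and chr17:35262844-35263093.
H2-K1: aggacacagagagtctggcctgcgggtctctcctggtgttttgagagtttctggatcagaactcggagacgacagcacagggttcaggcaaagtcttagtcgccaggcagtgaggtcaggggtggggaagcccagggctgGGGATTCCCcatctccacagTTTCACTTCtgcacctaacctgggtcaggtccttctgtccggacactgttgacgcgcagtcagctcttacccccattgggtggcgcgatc
H2-D1: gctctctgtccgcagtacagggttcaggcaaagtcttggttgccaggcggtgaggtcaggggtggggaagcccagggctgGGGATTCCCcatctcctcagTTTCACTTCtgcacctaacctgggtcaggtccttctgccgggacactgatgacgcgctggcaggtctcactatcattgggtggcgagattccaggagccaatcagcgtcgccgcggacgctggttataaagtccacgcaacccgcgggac
The kappaB letters begin at -110 from the start of H2-K1 and at -170 from that of H2-D1, each followed by TTTCACTTC, and the longest run common to both windows is 47 bases. Of 32851 promoter windows of 300 bases, from 250 before to 50 after the start, 0.353% held the kappaB letters and 7.52% held TTTCNNTTC. The next 3 are B2m at chr2:122147437-122147686, Psmb8 at chr17:34197945-34198194 and Tap1 at chr17:34187306-34187555.
B2m: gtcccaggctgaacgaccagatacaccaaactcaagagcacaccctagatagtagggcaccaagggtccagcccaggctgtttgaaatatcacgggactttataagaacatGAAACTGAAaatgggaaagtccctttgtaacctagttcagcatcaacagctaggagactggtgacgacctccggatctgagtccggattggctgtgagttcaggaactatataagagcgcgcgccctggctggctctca
Psmb8: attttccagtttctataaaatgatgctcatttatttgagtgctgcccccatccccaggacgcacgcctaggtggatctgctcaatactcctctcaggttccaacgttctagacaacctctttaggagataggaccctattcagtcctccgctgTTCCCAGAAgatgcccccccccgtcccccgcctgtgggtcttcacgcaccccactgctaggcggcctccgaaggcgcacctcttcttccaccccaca
Tap1: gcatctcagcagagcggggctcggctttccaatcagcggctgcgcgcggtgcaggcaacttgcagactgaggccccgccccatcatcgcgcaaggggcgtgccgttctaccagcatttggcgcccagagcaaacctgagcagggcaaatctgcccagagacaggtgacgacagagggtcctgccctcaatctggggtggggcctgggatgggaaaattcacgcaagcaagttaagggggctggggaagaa
B2m held TTCNNTTTC on the opposite strand, letters found in 8.56% of windows, and Psmb8 held a GAS match, found in 8.30%. Tap1 held none of these letters. Its window is shown because 275 of its 300 bases are also the window of Psmb9, read on the other strand. A match to short letters is a description of the sequence and not a measured site.

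The heavy chain H2-K1 was lowest in pericytes and fibroblasts outside library 1, and high in CD4+ and CD8+ T cells and mature dendritic cells. In library 1 neutrophils were lowest and endothelial cells highest, at 1161 and 3456 CPM. Regulatory T cells of library 2 had 926 CPM, below the 945 CPM of neutrophils there. In fibroblasts H2-K1 stood at 1320.5 CPM in library 1, 467 in library 2, 458 in library 3 and 497 in library 4. Pericytes had 437 CPM in library 2 and 431 in library 3. Both stromal classes were thus near the same low level outside library 1. Tumour cells had 2652 CPM (2640.5 to 2664) in library 1 and 871 CPM (844 to 900) in library 2, above the fibroblasts of the same library both times. CD4+ T cells had 3267, 1239.5, 2516 and 1799 CPM in libraries 1 to 4, macrophages 1932, 1386, 1311 and 1522 CPM, and neutrophils 1161, 945, 1106 and 1227 CPM. Neutrophils varied least among these, and the ranges of neutrophils and macrophages did not overlap. Mature dendritic cells, measured in library 3 alone, had 3334 CPM, the highest of the 11 classes there.

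H2-D1 separated tumour cells from fibroblasts further. It stood at 4735 CPM in tumour cells of library 1 and 1998 CPM in those of library 2, and in fibroblasts at 1882, 595, 453 and 500.2 CPM in libraries 1 to 4. Pericytes had 438 and 381 CPM in libraries 2 and 3. No fibroblast or pericyte value reached the lower of the tumour values. Macrophages had 3490.4, 2196, 2126 and 2649 CPM and CD4+ T cells 5245, 2524, 3982 and 3165 CPM, so that macrophages lay below the tumour cells of library 1 and above those of library 2, and CD4+ T cells above both. Endothelial cells, the stromal class lining vessels, had 4603 CPM in library 1 but 1218 and 1353 CPM in libraries 2 and 3, between the fibroblasts and every immune class of those libraries.

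The light chain B2m ordered the classes differently. Macrophages had 2382, 2638, 2753 and 3298 CPM in libraries 1 to 4 and led the classes in libraries 2 and 4. Tumour cells had 1982 and 1147 CPM, below the macrophages of libraries 1 and 2. Fibroblasts had 1456, 554, 459 and 615 CPM. B2m was therefore nearer between tumour cells and fibroblasts than H2-D1 was: 1.36-fold in library 1 and 2.07-fold in library 2 for B2m, against 2.52-fold and 3.35-fold for H2-D1. Mature dendritic cells again stood highest in library 3, with 5648 CPM.

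**Figure D1:**
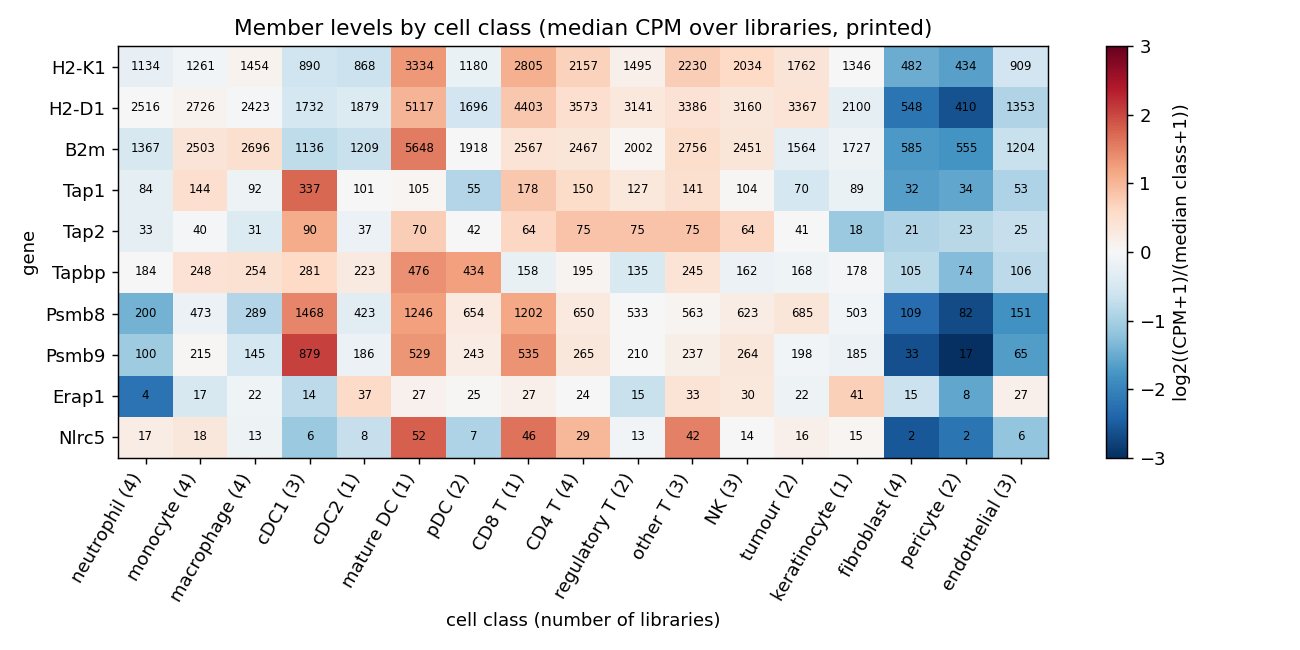
Level of each gene in each cell class, as the median CPM over the libraries that hold the class (printed) and as its log2 ratio to the median class (colour). Fibroblasts and pericytes lie below the median class for every gene, cDC1 stand out for Tap1 (337 CPM) and Psmb9 (879 CPM), neutrophils for low Erap1 (4 CPM), and classes resting on 1 library (number in brackets) carry that library's level.

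**Figure D2:**
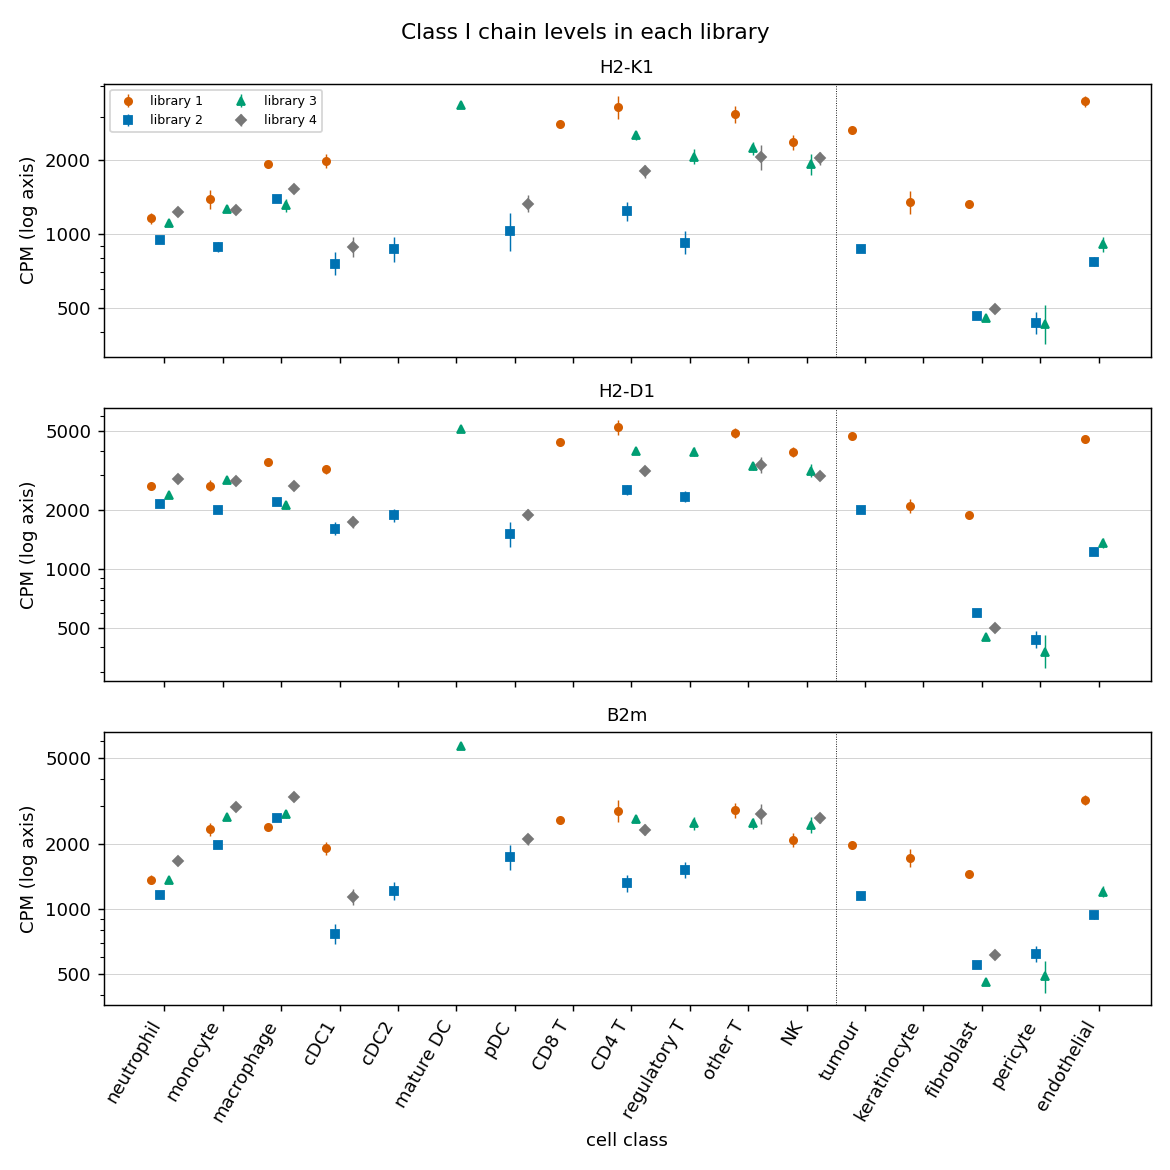
CPM on a log axis of H2-K1, H2-D1 and B2m in each class and library, with exact 95% Poisson intervals; the dotted line divides immune classes from tumour and stroma. Fibroblasts and pericytes lie lowest outside library 1, and library 1 (orange) lies above the other libraries in fibroblasts, tumour cells and endothelial cells.

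The transporter subunit Tap1 was most abundant in cDC1. It stood at 367 CPM in library 1, 209 in library 2 and 337 in library 4 in these cells, the highest class in each of those libraries. In macrophages it was at 181, 58.7, 106 and 77.4 CPM in libraries 1 to 4, and in fibroblasts at 80.5, 23.8, 23.6 and 39.6 CPM. Tumour cells had 125 CPM (122 to 127) in library 1 and 15.6 CPM (12.1 to 19.8) in library 2. Tumour cells were thus above fibroblasts in library 1 and below them in library 2, and had the lowest value of the 12 classes there. In library 2 the intervals of pericytes (18.7 to 42.6 CPM) and plasmacytoid dendritic cells (4.97 to 70.4 CPM, from 3 UMIs) overlapped that of tumour cells. Tap2 had few UMIs and a narrower range, from 75.1 to 121 CPM in cDC1, 98.7 CPM in endothelial cells and 96.9 CPM in CD4+ T cells of library 1, where cDC1 had the 75.1 CPM, from 16.8 to 39.7 in fibroblasts, and 60.9 and 21.6 CPM in tumour cells of libraries 1 and 2.

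Tapasin followed neither pattern. Plasmacytoid dendritic cells, known for making type I interferon, led with 426 and 443 CPM of Tapbp in libraries 2 and 4. Tumour cells had 177 and 160 CPM, close to each other, and fibroblasts 176, 129.6, 65.7 and 80.4 CPM. In library 1 tumour cells and fibroblasts did not differ beyond their counting intervals (174 to 180 and 160.3 to 192 CPM). Tapbp also overlaps Zbtb22 on the same strand, so reads in the shared stretch may have been left out.

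The inducible proteasome subunits were high in cDC1 and low in fibroblasts and pericytes. Psmb8 was at 1468, 1187 and 1613 CPM in cDC1 of libraries 1, 2 and 4, and at 381, 74.9, 82.1 and 136 CPM in fibroblasts of libraries 1 to 4. In tumour cells it stood at 1157 CPM (1149.9 to 1165) in library 1 and 213 CPM (199.5 to 227) in library 2. Neutrophils had 571, 130.3, 165 and 234 CPM and monocytes 1005.5, 332, 405 and 541 CPM, so that monocytes were higher in each library. Psmb9 ran in parallel, with 1047, 879 and 783 CPM in cDC1, 354 and 41.8 CPM in tumour cells and 111, 18.8, 21.7 and 44.0 CPM in fibroblasts. The range over classes within library 2 was 15.9-fold for Psmb8 and 46.8-fold for Psmb9, both from fibroblasts to cDC1.

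Read against the constitutive subunits, the classes also differed in the share of inducible subunit transcripts. The share of Psmb8, Psmb9 and Psmb10 UMIs among these and the constitutive Psmb5, Psmb6 and Psmb7 was 85.1%, 79.9% and 79.1% in cDC1. It was 75.4%, 51.7%, 48.2% and 50.1% in macrophages and 80.6%, 60.1%, 62.4% and 70.7% in neutrophils of libraries 1 to 4. Fibroblasts stood at 56.2%, 26%, 21.8% and 32.1%, below each immune class of the same library. Pericytes were lowest, at 23.9% and 14.5% in libraries 2 and 3. Tumour cells had 75.7% in library 1 and 39.1% in library 2, and endothelial cells 70.0%, 30.7% and 33.2% in libraries 1 to 3. Tumour cells therefore stood beside the macrophages in library 1 and lay between them and fibroblasts in library 2. The share is of transcripts; assembled proteasomes were not measured.

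**Figure D3:**
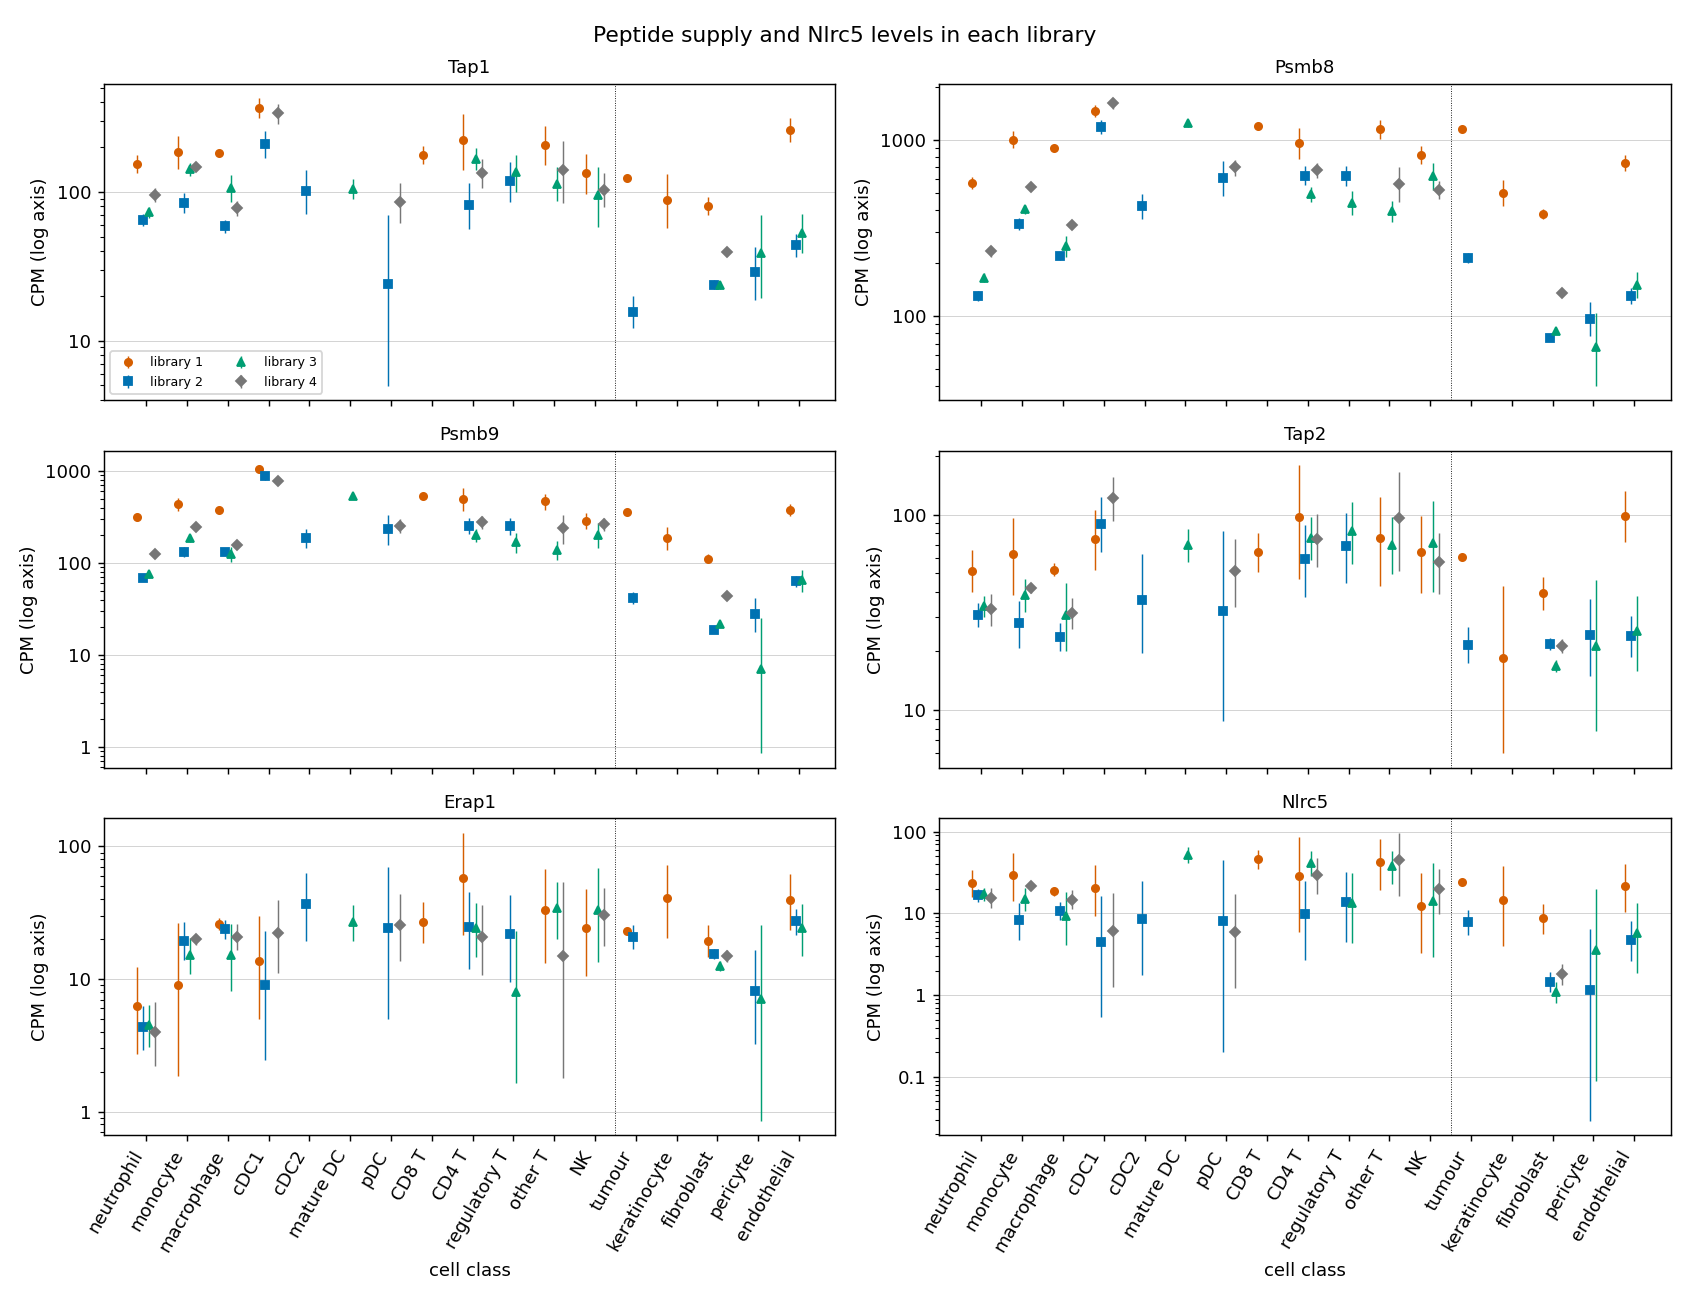
CPM on log axes of Tap1, Tap2, Psmb8, Psmb9, Erap1 and Nlrc5 in each class and library with exact 95% Poisson intervals. Psmb8 and Psmb9 peak in cDC1, Erap1 is lowest in neutrophils in all 4 libraries (4.0 to 6.3 CPM), and intervals are wide where few cells were read.

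**Figure D4:**
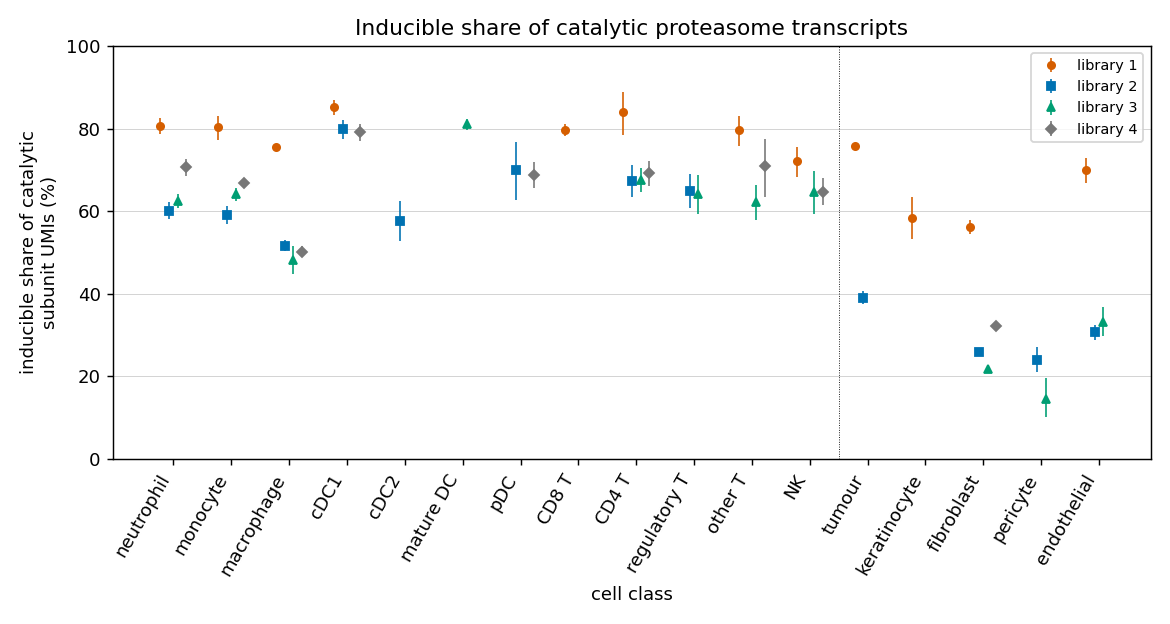
Share of inducible subunits among catalytic proteasome UMIs (%), by class and library, with exact 95% binomial intervals. Library 1 is highest in every class it shares with another library; fibroblasts range from 21.8% to 56.2% and tumour cells stand at 39.1% and 75.7%.

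Erap1 was the member with a pattern of its own. Neutrophils had 6.26, 4.37, 4.52 and 4.01 CPM in libraries 1 to 4, from 8, 28, 32 and 14 UMIs. These were the lowest values of all classes in each library. The intervals of some classes with few UMIs overlapped theirs. In library 1 monocytes had 8.98 CPM from 3 UMIs (1.85 to 26.2), against 2.70 to 12.3 CPM in neutrophils. Macrophages had 26.1, 23.8, 15.3 and 20.9 CPM, tumour cells 23.1 and 20.9 CPM, and fibroblasts 19.5, 15.4, 12.5 and 14.9 CPM. Neutrophil values did not overlap with those of macrophages, tumour cells or fibroblasts. Cast on the opposite strand gave 36732 UMIs, and the sources used here do not say whether the counting used strand, so part of the Erap1 level is uncertain.

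The transactivator Nlrc5 was scarce in every class and low in fibroblasts. Pericytes gave 1 UMI in each of libraries 2 and 3. Their values were 1.15 CPM (0.0292 to 6.425) and 3.53 CPM (0.0894 to 19.7), so their place among the classes was not resolved. Mature dendritic cells had 51.6 CPM in library 3 and CD8+ T cells 46.1 CPM in library 1. Neutrophils had 23.5, 16.7, 17.2 and 15.5 CPM, and tumour cells 24 and 7.81 CPM. In fibroblasts Nlrc5 was at 8.82, 1.46, 1.10 and 1.80 CPM. The fibroblast value was below that of neutrophils in each of the 4 libraries and below that of tumour cells in libraries 1 and 2. By contrast cDC1, highest for Tap1, Psmb8 and Psmb9 in libraries 1, 2 and 4, had 20.5, 4.495 and 6.06 CPM of Nlrc5 there, the last 2 with intervals from 0.544 to 16.2 and from 1.25 to 17.7 CPM.

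The ranges of levels over the libraries were also set side by side for neighbouring classes. Ordering the 13 classes measured in at least 2 libraries by their median gave 12 neighbouring pairs for each gene. The ranges overlapped in 9 for Erap1, 10 for Tapbp and Nlrc5, 12 for B2m and 11 for each of the other 6 genes. The share of overlapping pairs over all genes is not given here, so nothing is read from these counts. These ranges pool the libraries, so an overlap does not mean that 2 classes were alike inside a library. Macrophages and neutrophils are neighbours that overlapped for Psmb8. Macrophages had 895, 219, 249 and 329 CPM in libraries 1 to 4, above the 571, 130.3, 165 and 234 CPM of neutrophils each time. The other pairs were not read library by library here.

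Comparisons between classes were also read within each library, counting a gene only if it differed at least 2-fold in the same direction in every library holding both classes. Of 8381 genes tested between tumour cells and fibroblasts, 6.86% were higher in tumour cells by this rule and 11.1% lower. Among the 10 members, 4 were higher (H2-D1, Psmb8, Psmb9 and Nlrc5) and none lower, with a median log2 ratio of 0.85 against 0.13 over all genes tested. Monocytes exceeded fibroblasts in Tap1, Psmb8, Psmb9 and Nlrc5, which is 4 of 10 members against 11.9% of genes, and no member was lower, against 16.8%. CD4+ T cells exceeded fibroblasts in 7 of 10 members against 9.81% of genes, all but B2m, Tapbp and Erap1, with none lower against 14.1%. Macrophages did so in 2 of 9 members tested, Psmb8 and Psmb9, against 9.68%, and were lower in none, against 12.2%. The median log2 ratio over those 9 members was 1.40 all the same. Neutrophils exceeded fibroblasts in Psmb9 and Nlrc5, 2 of 10 members against 13% of genes, with Erap1 lower, 1 of 10 against 34.1%. Endothelial cells did so in H2-D1 and Psmb9, 2 of 9 against 8.95%, with none lower against 6.93%. Pericytes differed from fibroblasts in 0 of 9 members, against 7.1% of genes higher and 6.02% lower.

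Between leucocytes and tumour cells the same reading, which asks for 2-fold in both libraries, called few members. In macrophages, monocytes and CD4+ T cells 0 of 10 members were 2-fold higher or lower than in tumour cells in both libraries, against 13.2%, 14.8% and 11.2% of genes higher and 13.5%, 19.4% and 14.9% lower. CD8+ T cells of library 1 also had 0 of 10, where 15% of genes were higher and 17.6% lower in that single library. For neutrophils 0 of 10 members were higher, against 14.3%, and Erap1 was lower, as were 40.8% of genes. Endothelial cells were 2-fold above tumour cells in Tap1 alone, against 13.7% of genes higher and 7.24% lower, with 261 against 125 CPM in library 1 and 43.9 against 15.6 CPM in library 2. A difference under 2-fold in either library, or one that turned between the libraries, is not counted here and was not tested. In library 2 CD4+ T cells had 81.5 CPM of Tap1 and 252 of Psmb9, against 15.6 and 41.8 CPM in tumour cells. In library 1 they had 223 and 494 CPM, against 125 and 354 CPM. Psmb8 turned, at 627 against 213 CPM in library 2 and 960 against 1157 CPM in library 1.

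Dendritic cells were compared with macrophages by subset. No library gave values for both subsets, so subset and library cannot be told apart. Psmb9 was called in both subsets. Psmb8, called in mature dendritic cells only, was also above macrophages in cDC1, but under 2-fold in library 1. It stood at 1468 against 895 CPM in library 1, 1187 against 219 CPM in library 2 and 1613 against 329 CPM in library 4. In cDC1 Tap1 and Psmb9 were higher in each of 3 libraries, 2 of 10 members against 4.35% of genes, and none was lower, against 8.66%. The median log2 ratio of the 3 chains was -0.77 in cDC1 against macrophages. Mature dendritic cells of library 3, which have left the antigen-uptake state, were higher in 7 of 10 members, including all 3 chains, against 15% of genes higher and 23.9% lower in that single library. Their chain values were 3334, 5117 and 5648 CPM for H2-K1, H2-D1 and B2m, against 1311, 2126 and 2753 CPM in macrophages. In cDC1, high transporter and immunoproteasome transcripts thus went with chain levels below those of macrophages in libraries 2 and 4.

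Other genes of the pathway were read from fixed lists. Of 16 nonclassical and other class I genes 8 could be tested between tumour cells and fibroblasts, and 2 were higher, H2-Q4 with 217 and 57.9 CPM in tumour cells against 64.0 and 19.1 CPM in fibroblasts of libraries 1 and 2, and H2-Q6 with 147 and 37.6 against 26.1 and 5.53 CPM. None was lower. The list of other loading genes, Calr, Canx, Pdia3 and Tapbpl, gave 0 of 4 in either direction, with a median log2 ratio of -0.45. Calr, Canx and Pdia3 were lower in tumour cells than in fibroblasts of libraries 1 and 2. Tapbpl was higher, with 30.7 against 10.7 CPM in library 1 and 9.41 against 6.80 CPM in library 2. Of Psmb10, Psme1 and Psme2 only Psme1, a subunit of the proteasome activator, was higher, and of the constitutive catalytic subunits 0 of 3 differed. Among 7 regulators 5 were tested and Irf8 was higher. All these counts are between tumour cells and fibroblasts, where 6.86% of all genes tested were higher and 11.1% lower. The lists are too short for counts of 0 or 1 to be read as a result. In neutrophils against macrophages Calr, Canx and Pdia3 were all lower, 3 of 4 against 20.4% of genes lower, while of the 10 members Erap1 alone was lower and none was higher, against 7.12%.

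Heavy chain transcripts were spread over nearly all cells. At full depth 0.199% of 3521 tumour cells in library 1 and 0% of 139 in library 2 had no H2-K1 or H2-D1 UMI, and in fibroblasts the share was 0%, 1.2%, 0.33% and 0.907% in libraries 1 to 4. To compare classes at a single depth, each cell was thinned to 1000 UMIs, which left out 768 of 24611 cells. Then 38 of 3475 tumour cells in library 1 lacked both chains, 1.09% (exact 95% binomial interval 0.775% to 1.50%), and 15 of 139 in library 2, 10.8% (6.17% to 17.2%). In fibroblasts the share was 9.88%, 36.2%, 41.7% and 37.5% in libraries 1 to 4, and in macrophages 1.53%, 8.99%, 10.1% and 4.05%. The mean level was 7.49 and 2.70 UMIs per thinned tumour cell in libraries 1 and 2. In thinned fibroblasts it was 3.44, 1.15, 1.04 and 1.19 UMIs in libraries 1 to 4. Counting alone at these means would leave 0.0557% and 6.74% of tumour cells without either chain. For fibroblasts it would leave 3.20%, 31.8%, 35.3% and 30.6%. The shares read were above these values each time, but for tumour cells of library 2 the 6.74% lay inside the binomial interval. No class here lacks class I by nature, so no class gives a background share, and the part of free RNA in these shares was not tested. UMIs per tumour cell were more spread than counting alone gives, with a variance of 2.21 and 1.64 times the mean in libraries 1 and 2.

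**Figure D5:**
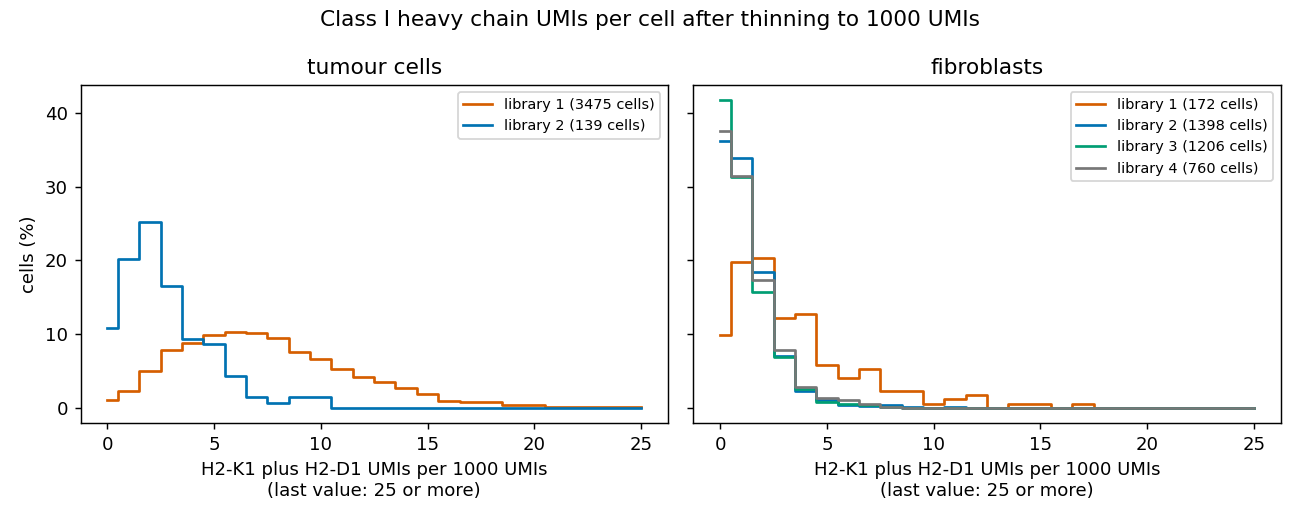
Share of cells (%) by the number of H2-K1 plus H2-D1 UMIs after thinning each cell to 1000 UMIs, for tumour cells (left) and fibroblasts (right), 1 line per library. Tumour cells of library 1 form a single broad hump around a median of 7 UMIs and those of library 2 around 2, while fibroblasts of libraries 2 to 4 pile up at 0 and 1.

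Tumour cells with and without proliferation transcripts were also compared. Cells with UMIs of at least 3 of 8 proliferation genes numbered 1170 of 3521 in library 1 and 33 of 139 in library 2. Their median log2 ratio to other tumour cells over the 10 members was 0.02 in library 1 and -0.28 in library 2, against 0.013 and -0.0052 over all genes tested. No member reached 2-fold in either direction, and few genes did at all, 2.57% and 3.54% higher and 0.197% and 2.49% lower, so nothing is read from that count. They were also deeper, with median UMIs of 25794 against 16252 in library 1 and 41321 against 28203 in library 2. H2-K1 was at 2588 CPM in these cells and 2705 CPM in other cells of library 1, and at 804 and 907 CPM in library 2.

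Values of the same class in different libraries are given as those of samples of unknown treatment. Tumour cells of library 1 exceeded those of library 2 at least 2-fold in 7 of 10 members, against 3.66% of 7940 genes, and were lower in none, against 7.39%. The ratio was 8.29-fold for Psmb9, 7.56-fold for Tap1, 5.41-fold for Psmb8, 3.04-fold for H2-K1, 2.84-fold for Nlrc5, 2.74-fold for Tap2 and 2.37-fold for H2-D1, while B2m (1.73-fold), Tapbp (1.11-fold) and Erap1 (1.10-fold) stayed under 2-fold. Of the constitutive Psmb5, Psmb6 and Psmb7 0 of 3 reached 2-fold. The cells of library 2 were fewer and deeper, 139 with a median of 29357 UMIs against 3521 with 18821, and the part of depth in these ratios was not tested.

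Fibroblasts are the stromal class measured in all 4 libraries. Library 1 exceeded library 2 in 6 of 9 members tested (4.61% of genes), library 3 in 8 of 9 (7.18%) and library 4 in 7 of 9 (6.78%), with no member lower (5.35%, 7.83% and 6.69% of genes). Library 2 against 3 gave 0 of 9 in either direction (4.04% of genes higher and 2.15% lower), library 3 against 4 likewise 0 of 9 (2.13% and 2.42%), and library 2 against 4 gave none higher (3.65%) and Psmb9 lower (1.29%). Library 1 gave 172 fibroblasts with a median of 14301.5 UMIs, against 23060 to 33718.5 in the others, and the part of depth was not tested. Krt8 and Krt18 transcripts in fibroblasts were also highest in library 1, and whether they came from free tumour RNA or from remaining doublets was not tested. With the tumour profile removed in the proportion of Krt8 and Krt18, a step added after seeing the data that takes all free RNA to follow these keratins, fibroblasts of library 1 were at 1200.03 CPM of H2-K1, 1624 of H2-D1, 1409 of B2m, 311 of Psmb8 and 89.5 of Psmb9. Whether free RNA follows the keratins was not tested. None of these libraries can be tied to PBS or to TIOs+NIR.

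Over the 44 class-library values the members fell into closely and loosely tied pairs. Psmb8 and Psmb9 had the highest Pearson correlation of their log2 levels (r = 0.963), followed by H2-K1 with H2-D1 (0.934) and Nlrc5 with H2-D1 (0.901). Tap1 and Psmb9, with their shared start region, had 0.841, and Erap1 with Tap1 had the lowest, 0.182. Outside the 10 genes, among 6381 candidates averaging at least 20 CPM, the levels most like those of the chains included H2-Q7 (0.873), H2-K2 (0.842), Rgs1 (0.806) and H2-T23 (0.790). For the peptide supply genes they were Psme1 (0.916), Psme2 (0.818), H2-T23 (0.776), Rgs1 (0.775) and Pkp3 (0.767). Reads of the chains may have been assigned to H2-Q7, H2-K2 or H2-T23, so their correlations may in part count the same transcripts. The part of this was not tested. All correlations here describe classes that share 4 libraries and their depth, and are not independent points.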

How the data were processed

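The authors deposited 1 matrix of whole-number UMI counts per gene and barcode for all samples, made with Cell Ranger, for which the submitters' processing notes name version 2.1.1, the extract protocol 3.0.2 and the matrix header 6.1.2, with the build mm10. No per-sample column was left unmapped, since the matrix is pooled and its 4 barcode suffixes match no label. The members and gene lists were chosen with earlier results of these data known. Cells were filtered (300 genes, 15% mitochondrial UMIs), assigned by transcripts of 8 markers per class (T cells then by Cd4, Cd8a, Cd8b1 and Foxp3), and counts were summed per class and library. Cells with mixed markers were set aside, and no doublet caller was run. Ratios are log2 of (CPM + 1), genes were tested from a mean of 10 CPM, and thinning drew 1000 UMIs per cell without replacement (seed 1). Genes named are the members, fixed lists of the pathway, and the 5 genes most like the chains and like the peptide supply genes, of which 1 is not reported here. Alternatives were 500 genes, 10% mitochondrial UMIs, 4 markers, a lead of 1 marker, 50 cells, a pseudocount of 5 CPM, thinning, means of per-cell shares, removal of Ptprc-positive tumour and stromal cells or of the 5% deepest cells, and each library left out. Removal of free tumour RNA was added after seeing the data. Python 3.11.15, numpy 2.4.6, scipy 1.17.1, pandas 2.3.3 and matplotlib 3.10.9 were used. All 55450 identifiers were found in GENCODE vM21, used for coordinates. The depth was 69255999 to 108646352 UMIs per library. The steps were tested on simulated data.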

Additional observations from a re-analysis of the deposited data

Results flagged for a closer look

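Barcodes with under 300 genes were left out of every class, yet carried class I UMIs. H2-K1, H2-D1 and B2m together stood at 2922 CPM in 121 such barcodes of library 1, 1212 CPM in 142 of library 2, 2867 CPM in 78 of library 3 and 1409 CPM in 73 of library 4, against 8750 (8749.8), 3011, 2909 and 4488 CPM in the cells kept. They were noted because they lie outside the comparisons and above a count of 0. The series holds no control for such barcodes.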

How the results depend on the processing

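Of 459 recomputed values 402 stayed within the spread between libraries, 37 moved and 20 changed sign; among the values that answer a comparison it was 107 of 123. The values here are log2 ratios, as medians over immune classes or over members and then over libraries. The 3 chains in immune against tumour cells stood at -0.09 and turned to 0.081 after thinning to 1000 UMIs, with -0.29 to 0.10 when a library was left out. For single genes of that comparison, H2-K1 was at 0.12 after thinning and ran from -0.29 to 0.10, H2-D1 from -0.35 to 0.045 and Psmb8 from -0.24 to 1.27 with a library left out, and Psmb8 was at -0.12 with at least 50 cells. Nlrc5 (0.17) was at 0.34 with a lead of 1 marker, 0.45 after thinning, 0.24 without the deepest cells and 0.28 with at least 50 cells. For fibroblasts against tumour cells the chains (-1.03) were at -0.97 with a lead of 1 marker, -0.93 after thinning, -0.92 as means of per-cell shares, -0.97 without Ptprc-positive cells and -0.99 without the deepest cells, and peptide supply (-0.49) at -0.056 after thinning and -0.28 as means of per-cell shares. In the same comparison Tap1 (-0.02) was at 0.0057 with a lead of 1 marker, 0.15 after thinning, 0.12 as means of per-cell shares, 0.012 without Ptprc-positive cells and 0.0046 without the deepest cells, and ran from -0.62 to 0.58 with a library left out. Tap2 (-0.30) was at 2.23 after thinning, from -0.61 to 0.01 with a library left out, and Erap1 (-0.33) at 0.65 after thinning. For neutrophils against macrophages peptide supply (-0.47) was at -0.36 after thinning, and Tap1 ran from -0.23 to 0.14. Dividing against other tumour cells stood at -0.13, at 0.020 with at least 50 cells, and from -0.28 to 0.020 with a library left out. The cause was not tested. The share of tumour cells without heavy chain UMIs, a median of 5.94% at 1000 UMIs per cell, was 1.94% at 2000 UMIs. Thinned Tap2 and Erap1 rest on few UMIs. Leaving out library 1 or 2 leaves tumour cells from a single library. Classes were compared within each library, but no analysis paired by mouse or treatment was possible because no label ties a library to a sample. With no control over which mouse gave which library, mice and treatments cannot be told apart from library differences.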

Other observations

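Differences between libraries were also counted in every class measured in both libraries of a pair. Library 1 exceeded library 2 at least 2-fold in 44 of 78 member values over 8 classes, where 3.66% to 19% of all genes did so by class, and was lower in 1, Erap1 of monocytes (5.35% to 15.6% of genes). It exceeded library 3 in 28 of 78 (7.18% to 13.8% of genes) and was lower in 0 (7.83% to 21.2%), and exceeded library 4 in 17 of 78 (4.87% to 14.6%) and was lower in the same one (6.69% to 24.3%). Library 2 exceeded library 3 in 2 of 75 (1.37% to 12.4% of genes) and was lower in 4 (1.17% to 20.5%), and exceeded library 4 in 0 of 66 (3.40% to 9.67%) and was lower in 5 (1.29% to 14.3%). Library 3 exceeded library 4 in 1 of 68 (2.13% to 13.5%) and was lower in 0 (0.590% to 12.4%). The counts among libraries 2 to 4 lie near or inside these shares. By class, library 1 held the highest of 4 values for 10 of 10 members in fibroblasts, 8 in macrophages, 8 in CD4+ T cells, 6 in monocytes and 6 in neutrophils. The share of all genes with library 1 highest is not given here, so nothing is read from these counts. Endothelial cells of library 1 exceeded those of libraries 2 and 3 at least 2-fold in 9 of 10 members each, all but Erap1, against 5.57% and 7.76% of genes, and were lower in none, against 6.08% and 9.43%.

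MHC class II transcripts, which serve CD4+ T cells, differed between libraries as well. In tumour cells H2-Ab1 was at 623 CPM in library 1 and 29.6 CPM in library 2, and the invariant chain Cd74 at 2367 and 71.9 CPM. Some other classes, but not all, differed likewise between libraries 1 and 2. CD4+ T cells went the other way, with Cd74 at 766 CPM in library 1 and 1138 CPM in library 2. In cDC1 it stood at 22338.5 and 18384 CPM. Cd74 was at 1966 and 339 CPM in neutrophils, 1754 and 42.2 CPM in endothelial cells, and 623 and 57.7 CPM in fibroblasts. The part of free leucocyte RNA in these levels was not tested. In macrophages Cd74 stood at 20538, 1887, 1190 (1189.6) and 556 CPM in libraries 1 to 4.

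The 4470 cells with mixed markers held 7755, 3675, 4170.2 and 4281 CPM of the 3 chains in libraries 1 to 4, with medians of 11388.5, 8305.5, 7230 and 10049 UMIs per cell.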
